A study of Mus musculus with 18 samples.

Results

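Bile acid synthesis and hepatobiliary transport were described here through 37 listed genes: the enzymes that turn cholesterol into bile acids and conjugate them, the uptake and export carriers of the hepatocyte, and the hepatic receptor of the intestinal feedback signal. Members were chosen by gene name, with no rule on measured values, though earlier results of these data were known when they were chosen. Of the 37 genes, 36 were measured, out of 17097 genes on the array, and Osbpl1a was not analysed here. The mice were females of 6 to 8 weeks, and their liver RNA was hybridised to 18 Affymetrix MG-430 PM arrays. The transgenic model, on C57BL/6, set 5 liver samples with an NPC1L1 transgene against 5 wild-type samples. The ASO model, on C57BL/6N, set 4 samples from mice treated with an antisense oligonucleotide (ASO) to ACAT2 against 4 from mice treated with a control ASO that has no target. Every mouse of the ASO model, controls included, had therefore received an oligonucleotide. The sources used here name neither the promoter of the transgene nor the ASO doses. The study set out to raise the non-biliary route of cholesterol excretion through the intestine, chronically with the transgene and acutely with the ASO. NPC1L1 is a sterol transporter that returns biliary cholesterol to the hepatocyte, and ACAT2 esterifies cholesterol in liver and intestine.

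Bile acids are the main end product of cholesterol breakdown in the liver. In the classic pathway Cyp7a1 hydroxylates cholesterol first, and in the alternative pathway the side chain is oxidised first by Cyp27a1. Bile acids that return from the intestine are taken up by the hepatocyte and secreted again across its canalicular membrane, and they repress their own synthesis through the nuclear receptor FXR, the repressor Nr0b2 (SHP) and, from the gut, the hormone Fgf15 acting on Fgfr4 with its partner Klb.

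In each model no gene of the list passed the test. The 1 gene whose response differed between the models was Baat, the enzyme that joins bile acids to taurine. Calls were made with limma at a Benjamini-Hochberg adjusted p under 0.05 over all 17097 genes. In transgenic against wild-type livers 0 of 36 members passed, beside 0.228% of all genes (0.17% higher and 0.0585% lower). In ACAT2 ASO against control ASO livers 0 of 36 passed, beside 0.597% of all genes (0.181% higher and 0.415% lower). For the difference of the 2 effects, transgenic effect minus ASO effect, 1 of 36 passed, beside 1.07% of all genes. That call was on the higher side, where 0.766% of all genes passed and, on the lower side, 0.304%. The share of members called was thus near the background in the first 2 comparisons, and the single call of the third does not set the list apart.

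At an unadjusted p under 0.05, 6 of 36 members (16.7%) were higher in transgenic livers, beside 6.36% of all genes, and 0 were lower, beside 4.52% (10.9% in either direction). These 6 were Cyp7a1, Cyp7b1, Cyp39a1, Baat, Hsd17b4 and Slc22a7. In ACAT2 ASO livers 2 members were higher at that p, Cyp2c70 and Slc10a2, beside 5.68% of all genes, and 3 were lower, Baat, Slco2b1 and Slc51b, beside 7.63%, so that 5 members stood beside 13.3% of all genes in either direction. The difference of the effects had an unadjusted p under 0.05 in 8 members, beside 15.4% of all genes; 6 were above 0, beside 8.69%, and 2 below, beside 6.66%. The median difference of the members was 0.08 on the log2 scale in the transgenic model, against 0.0058 over all genes, and -0.01 in the ASO model, against -0.00056 over all genes. Differences above 0 were found for 23 of 36 members in the transgenic model, beside 52.6% of all genes, and for 16 of 36 in the ASO model, beside 49.7%. The difference of the effects was above 0 for 23 of 36, beside 52% of all genes.

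**Figure D1:**
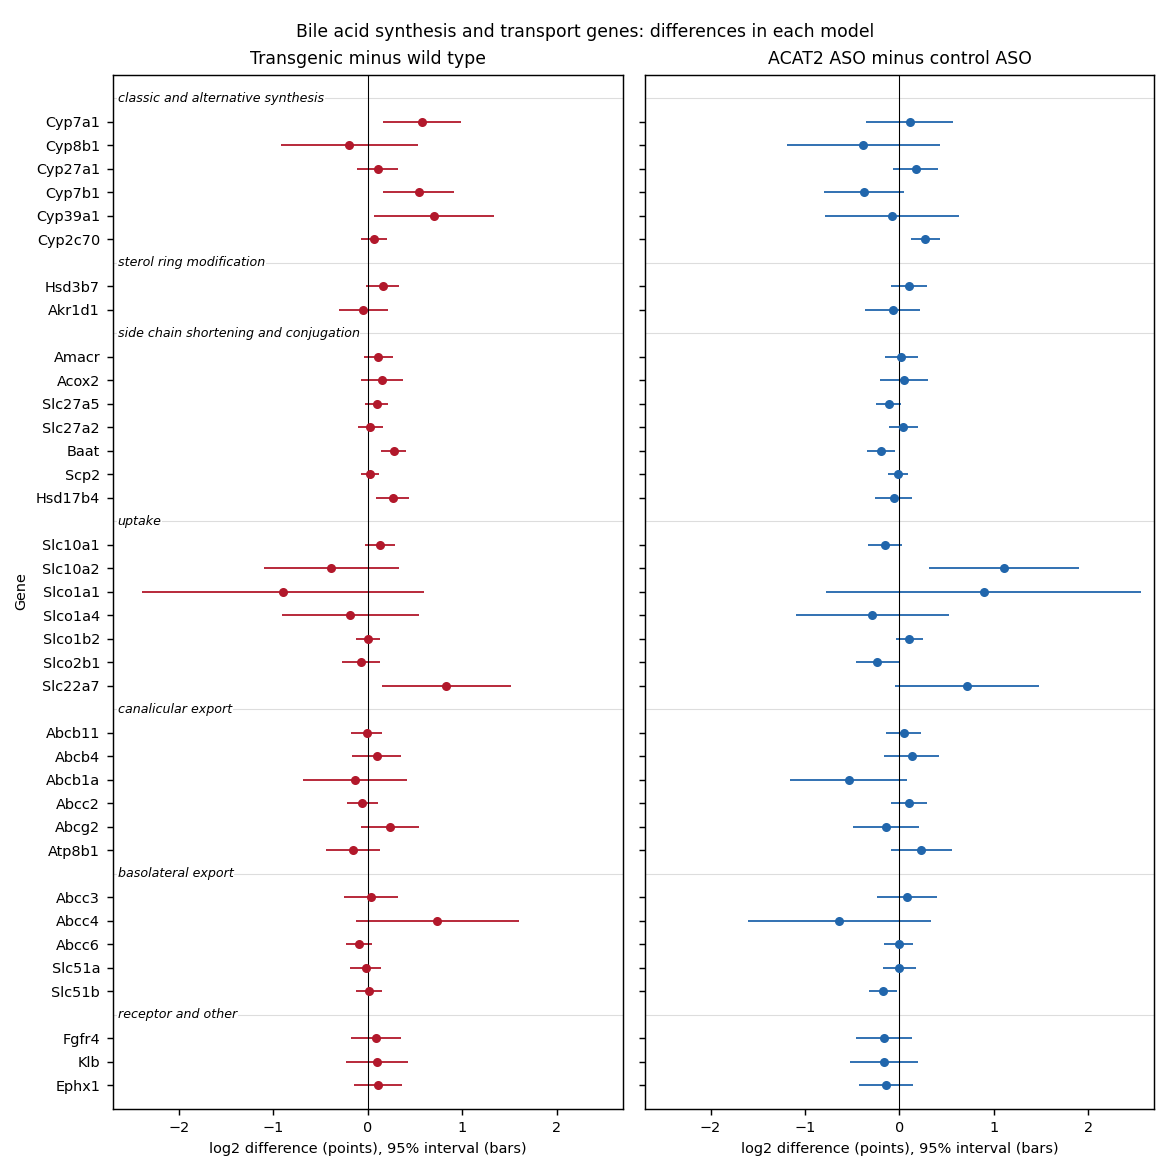
Log2 differences of the 36 measured genes, transgenic minus wild type (left) and ACAT2 ASO minus control ASO (right), grouped by role, with limma's 95% intervals as bars. The intervals of Cyp7a1, Cyp7b1, Cyp39a1, Baat, Hsd17b4 and Slc22a7 lie above 0 on the left; on the right those of Cyp2c70 and Slc10a2 lie above 0 and those of Baat, Slco2b1 and Slc51b below 0.

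The arrays resembled each other closely. The mean correlation of an array with the others of its group was 0.988 to 0.995, and the lowest values belonged to wild type 2, control ASO 4 and ACAT2 ASO 1. Array medians ran from 4.61 to 4.65 for the transgenic model and from 4.38 to 4.40 for the ASO model, and for that reason a level is set only against levels of its own model. Hepatocyte markers such as Alb and Ttr were high and even, with a mean over 8 genes of 12.70 to 12.77 in transgenic, 12.71 to 12.80 in wild-type, 12.43 to 12.55 in ACAT2 ASO and 12.45 to 12.50 in control ASO livers. The labelled tissue thus carried its defining transcripts on all 18 arrays. In whole liver, fewer cells of a type and less RNA per cell cannot be told apart. Levels below are log2 RMA values, and differences are on the same log2 scale with limma's standard error.

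Baat had levels of 9.50, 9.67, 9.66, 9.64 and 9.69 in the transgenic livers, against 9.20, 9.40, 9.47, 9.49 and 9.21 in wild-type livers. Group means were 9.63 ± 0.08 and 9.35 ± 0.14 (SD, n = 5 each), and all 5 transgenic values lay above all 5 wild-type values, the closest being transgenic 1 at 9.50 and wild type 4 at 9.49. In the ASO model the order was the opposite, with 9.17, 9.29, 9.33 and 9.35 in ACAT2 ASO livers and 9.45, 9.52, 9.41 and 9.55 in control ASO livers. Group means were 9.28 ± 0.08 and 9.48 ± 0.07 (SD, n = 4 each), and all 4 ACAT2 ASO values lay below all 4 control values. The difference was 0.28 ± 0.06 in the transgenic model (limma adjusted p = 0.0813) and -0.20 ± 0.07 in the ASO model (limma adjusted p = 0.204), so neither passed by itself. The difference of the 2 effects was 0.48 ± 0.09, with a 95% interval of 0.28 to 0.68 (limma adjusted p = 0.0245), which is a 1.39-fold ratio between the effects. The models also differed in strain and in the oligonucleotide that every mouse of the ASO model received. Their part in this difference cannot be told apart from that of the treatments and was not tested.

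The call for Baat depended on the probe set and on single arrays. The second probe set of Baat gave 0.08 ± 0.07 for transgenic minus wild type and -0.19 ± 0.08 for ACAT2 ASO minus control ASO, and a difference of effects of 0.27 ± 0.10 (limma adjusted p = 0.236 over all probe sets). Both probe sets had the same signs, and the transgenic difference was smaller in the second. With the mean of both probe sets the difference of effects was 0.37 (limma adjusted p = 0.0729). Leaving out ACAT2 ASO 1 gave 0.44 (limma adjusted p = 0.0552) and leaving out control ASO 2 gave 0.46 (limma adjusted p = 0.0526). Without wild type 2, ACAT2 ASO 1 and control ASO 4 together it was 0.43 (limma adjusted p = 0.0942).

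**Figure D2:**
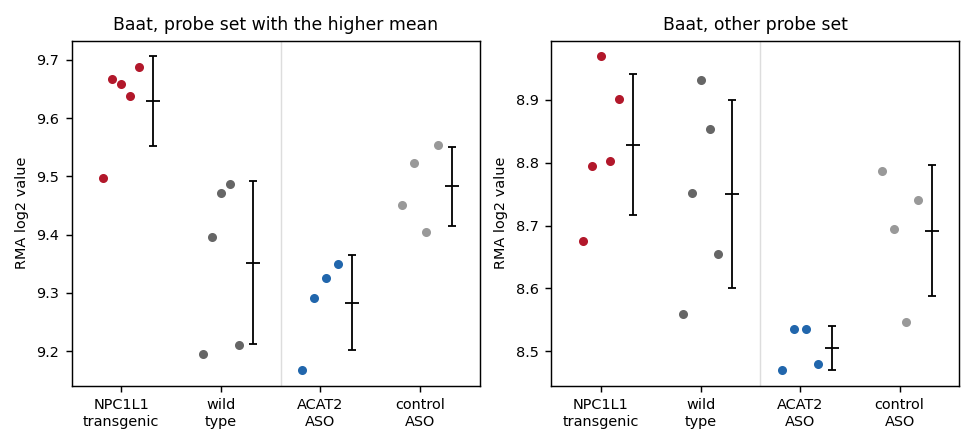
Log2 RMA level of Baat on each array (points), with group mean and SD (bars), for the probe set with the higher mean (left) and the other (right); the vertical axes start above 0. On the left the 5 transgenic points lie above the 5 wild-type points and the 4 ACAT2 ASO points below the 4 control points; on the right the transgenic and wild-type points overlap.

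Among the 6 enzymes of the classic and alternative pathways, 5 had a difference above 0 in transgenic livers, with a median of 0.32, and 0 passed the test. In ACAT2 ASO livers 3 of the 6 were above 0, with a median of 0.01. Cyp7a1, the rate-limiting enzyme of the classic pathway, had levels of 9.93, 10.16, 10.40, 10.37 and 10.73 in transgenic livers and 9.50, 9.56, 9.49, 9.98 and 10.17 in wild-type livers. The groups overlapped, since wild type 4 and wild type 5 reached the lower transgenic values. The difference was 0.58 ± 0.20, a 1.49-fold ratio with a 95% interval of 0.16 to 0.99 on the log2 scale (limma adjusted p = 0.274). With the ASOs Cyp7a1 stood at 10.17, 10.60, 10.09 and 10.58 in ACAT2 ASO livers and 10.19, 10.56, 9.62 and 10.63 in control ASO livers. These values were interleaved, and the difference was 0.11 ± 0.22 with an interval of -0.36 to 0.57 (limma adjusted p = 0.892). The other probe set of Cyp7a1 gave 0.66 in the transgenic and -0.02 in the ASO model.

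Cyp7b1, the oxysterol hydroxylase of the alternative pathway, showed 9.37, 9.16, 9.48, 9.61 and 9.83 in transgenic livers, against 9.07, 8.96, 8.90, 8.81 and 9.01 in wild-type livers. Every transgenic value exceeded every wild-type value, with a difference of 0.54 ± 0.18 (limma adjusted p = 0.251). In ACAT2 ASO livers it showed 8.90, 8.55, 8.52 and 8.36, against 8.81, 8.80, 8.49 and 9.74 in control ASO livers. Control ASO 4 stood above all other arrays of that model, and the difference of -0.38 ± 0.20 (limma adjusted p = 0.437) became -0.12 without it. The difference of the effects was 0.92 ± 0.27 (limma adjusted p = 0.103). Of its other probe sets, 1 gave 0.54 and -0.45 in the transgenic and ASO models, and the other 0.02 and -0.02.

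Cyp39a1 hydroxylates a side-chain oxysterol on a minor route. Its levels were 8.55, 8.25, 8.19, 8.54 and 8.26 in transgenic livers and 8.50, 6.74, 7.69, 7.86 and 7.49 in wild-type livers. The transgenic values lay close together, the wild-type values spread down to wild type 2, and the groups overlapped because wild type 1 was as high as the transgenic arrays. The difference was 0.70 ± 0.30 (limma adjusted p = 0.401). With the ASOs its levels were 8.76, 7.72, 9.22 and 9.26 in ACAT2 ASO and 8.46, 9.06, 9.30 and 8.45 in control ASO livers, which overlapped, with a difference of -0.08 ± 0.34 (limma adjusted p = 0.953). Cyp27a1, the mitochondrial enzyme that opens the alternative pathway, had 10.54, 10.60, 10.39, 10.54 and 10.66 in transgenic and 10.56, 10.28, 10.17, 10.46 and 10.73 in wild-type livers. It had 11.22, 10.70, 11.13 and 11.19 in ACAT2 ASO and 10.84, 10.88, 10.95 and 10.90 in control ASO livers. Both pairs of groups overlapped, with differences of 0.11 ± 0.10 (limma adjusted p = 0.780) and 0.17 ± 0.12 (limma adjusted p = 0.576).

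Cyp8b1 is the sterol hydroxylase that directs synthesis towards cholic acid, and Cyp2c70 is the mouse enzyme that makes muricholic acids. Their promoter windows are shown because, among the members with a window, these were the ones that held the HNF4A letters searched for. The sequences are RefSeq's on build GRCm38.p6, from 250 bases before the annotated start to 50 bases after it, on the strand of the gene, which is the minus strand for both. Cyp8b1 lies at chr9:121916256-121916555 and Cyp2c70 at chr19:40187237-40187536. Capitals mark CAAAGTCCA, the HNF4A letters, and TATAAA or its reverse complement.
Cyp8b1: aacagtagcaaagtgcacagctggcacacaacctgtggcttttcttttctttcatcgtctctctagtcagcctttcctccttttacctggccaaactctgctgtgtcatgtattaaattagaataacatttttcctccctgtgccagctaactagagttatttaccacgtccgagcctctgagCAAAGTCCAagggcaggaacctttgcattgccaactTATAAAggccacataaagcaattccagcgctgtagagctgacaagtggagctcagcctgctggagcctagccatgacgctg
Cyp2c70: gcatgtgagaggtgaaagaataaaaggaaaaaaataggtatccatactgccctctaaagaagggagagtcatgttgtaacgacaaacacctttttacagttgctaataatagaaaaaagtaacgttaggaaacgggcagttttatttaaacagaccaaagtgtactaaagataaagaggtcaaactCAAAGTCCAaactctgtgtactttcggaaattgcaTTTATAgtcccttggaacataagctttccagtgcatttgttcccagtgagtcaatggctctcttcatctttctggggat
The HNF4A letters begin 67 bases before the start in Cyp8b1 and 64 bases before it in Cyp2c70, both on the strand of the gene, and they do not overlap the TATA letters that begin 31 and 29 bases before the start.

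Windows were matched for 25 of the 36 measured members, 32 windows in all. No window was matched for Cyp7a1, Cyp7b1 and Baat, among others, so the counts do not cover these genes. The HNF4A letters were in 2 of these 32 windows, beside 0.475% of 32851 mouse promoter windows of the same length searched on both strands. TATAAA was in 8 of the 32 windows, of Abcg2, Cyp2c70, Cyp8b1, Ephx1, Slc10a1, Slco1a1 and Slco1b2, beside 13.6% of all windows. The LRH-1 letters CAAGGTCA were in 1 window, of Abcg2, beside 1.56% of all. The FXR inverted repeat, AGGTCA followed after 1 base by TGACCT (0.00913% of all windows), the HNF1 palindrome, GTTAAT followed after 1 base by ATTAAC (0.00913%), and the D-box TTATGTAA (0.938%) were in 0 of the 32 windows. These matches describe letters in a window and no binding was measured.

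On the arrays, Cyp8b1 stood at 9.03, 8.42, 8.07, 7.65 and 8.61 in transgenic and 8.79, 8.62, 8.23, 8.62 and 8.51 in wild-type livers. It stood at 7.58, 7.93, 6.71 and 7.89 in ACAT2 ASO and 8.18, 6.96, 7.37 and 9.13 in control ASO livers. The groups overlapped in both models, and the spread between arrays of a group reached an SD of 0.96 in control ASO livers. The differences were -0.19 ± 0.34 (limma adjusted p = 0.905) and -0.39 ± 0.38 (limma adjusted p = 0.740). Cyp2c70 had 12.47, 12.38, 12.30 and 12.33 in ACAT2 ASO livers, against 12.08, 12.08, 11.95 and 12.27 in control ASO livers. The ACAT2 ASO values all lay above the control values, with a difference of 0.27 ± 0.07 (limma adjusted p = 0.0928). In transgenic livers Cyp2c70 had 12.35, 12.15, 12.24, 12.42 and 12.41, against 12.19, 12.34, 12.28, 12.14 and 12.30 in wild-type livers. Those groups overlapped, with a difference of 0.07 ± 0.06, and the difference of the effects was -0.21 ± 0.10 (limma adjusted p = 0.316). In the ASO comparison 2 members, Cyp2c70 and Slc10a2, had groups that did not overlap with the ACAT2 ASO arrays higher, beside 4.39% of all genes.

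Hsd3b7 and Akr1d1 modify the sterol ring. Hsd3b7 differed by 0.16 ± 0.08 in the transgenic model (limma adjusted p = 0.505) and by 0.10 ± 0.09 in the ASO model (limma adjusted p = 0.698). Akr1d1 differed by -0.05 ± 0.12 and -0.07 ± 0.14 in the same order, and the groups of both genes overlapped in both models. Akr1d1's other probe set gave -0.02 ± 0.13 and -0.26 ± 0.15.

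All 7 genes of side chain shortening and conjugation had a difference above 0 in transgenic livers, with a median of 0.11, and 3 of 7 did in ACAT2 ASO livers, with a median of -0.01. None of the 7 passed the limma test within a model. An unadjusted p under 0.05 was found for 2 with the transgene, beside 10.9% of all genes in either direction, and 1 with the ASO, beside 13.3%. Counts this small do not set these genes apart. Hsd17b4, the peroxisomal multifunctional enzyme that acts after the side chain is activated, had 10.56, 10.55, 10.67, 10.45 and 10.42 in transgenic and 10.33, 9.99, 10.25, 10.37 and 10.40 in wild-type livers. The transgenic values all lay above the wild-type values, by a narrow margin between transgenic 5 and wild type 5, and the difference was 0.26 ± 0.08 (limma adjusted p = 0.232). It had 10.42, 10.52, 10.64 and 10.68 in ACAT2 ASO and 10.77, 10.60, 10.72 and 10.42 in control ASO livers, which overlapped, with a difference of -0.06 ± 0.09 (limma adjusted p = 0.854). With Cyp7b1 and Baat, Hsd17b4 made 3 members whose transgenic values all lay above wild type, beside 1.42% of all genes, and 0 members lay wholly below, beside 0.801% (2.22% in either direction). Slc27a5, the bile acid CoA ligase that acts just before Baat, differed by 0.10 ± 0.06 in the transgenic and -0.12 ± 0.06 in the ASO model, and the difference of the effects was 0.21 ± 0.09 (limma adjusted p = 0.239). A difference above 0 with the transgene and below 0 with the ASO, as in Baat and Slc27a5, was found in 13 of 36 members. The opposite signs were found in 6, while 10 were above 0 in both models and 7 below 0 in both. The share of all genes with each pair of signs was not computed, so whether these counts set the list apart is not known. Acox2, the peroxisomal oxidase of the side chain, differed by 0.15 ± 0.11 with the transgene and 0.05 ± 0.12 with the ACAT2 ASO, and Amacr, the racemase before it, by 0.11 ± 0.07 and 0.02 ± 0.08. Slc27a2, an acyl-CoA ligase of the intermediates, differed by 0.03 ± 0.06 with the transgene and 0.04 ± 0.07 with the ACAT2 ASO, and Scp2, whose long form is the thiolase of the pathway, by 0.02 ± 0.04 and -0.01 ± 0.05.

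**Figure D3:**
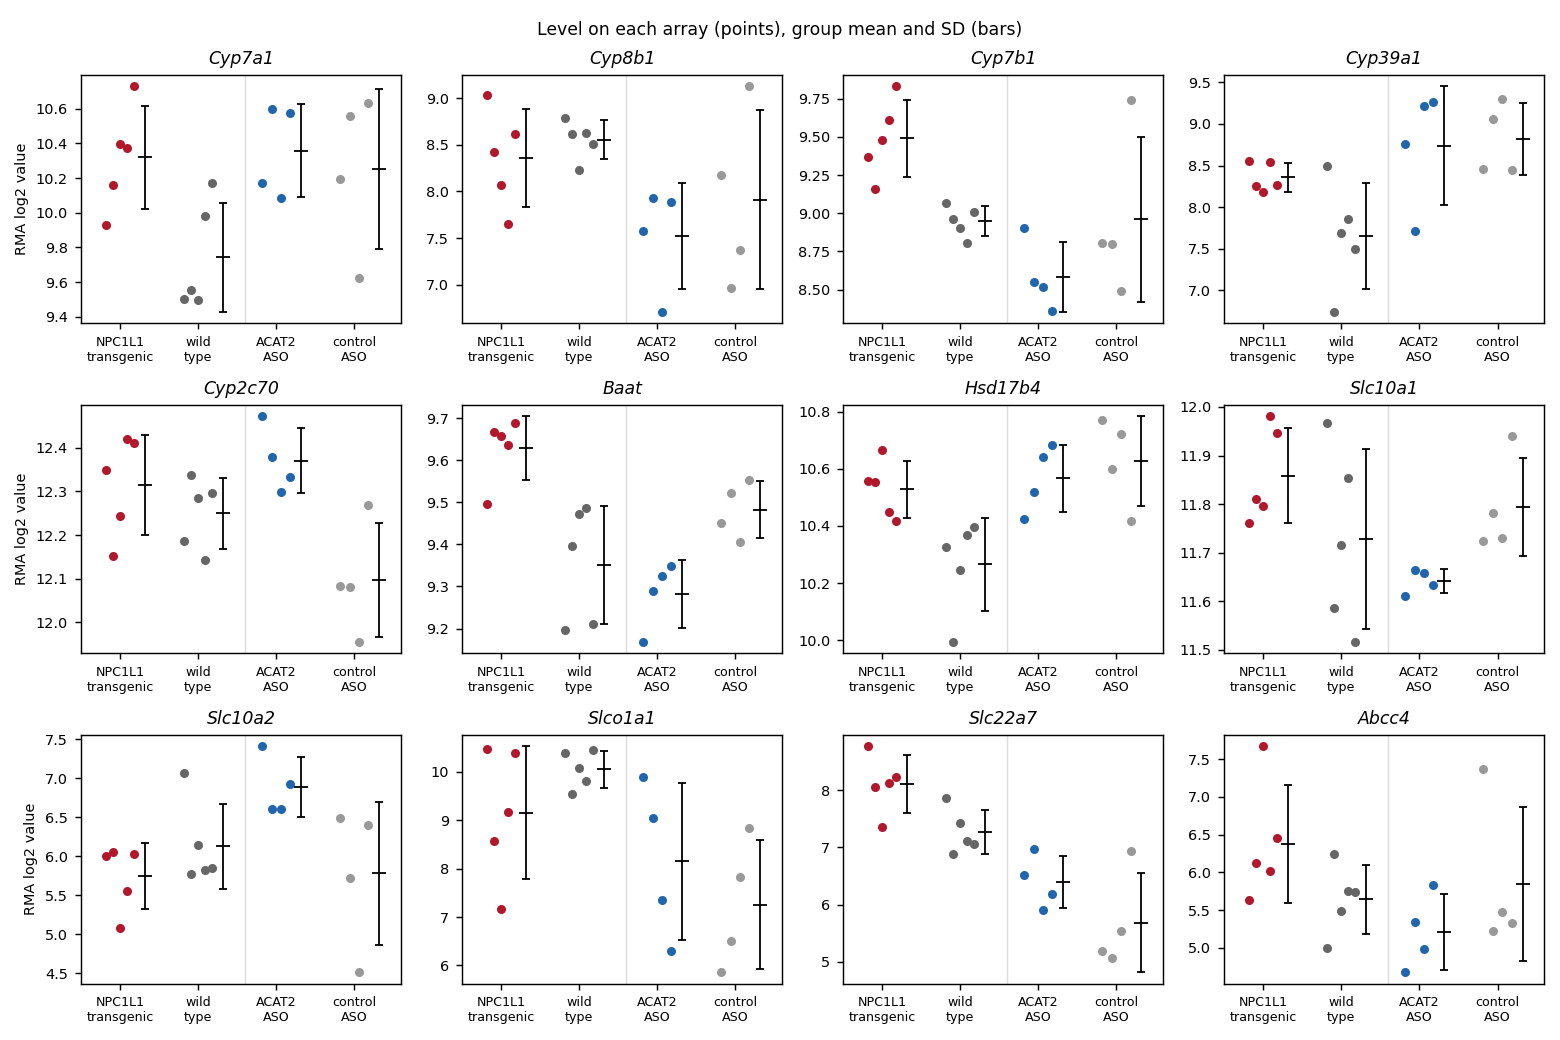
Log2 RMA level on each array (points) for 12 of the genes, with group mean and SD (bars); transgenic and wild-type livers are left of the vertical line, ACAT2 ASO and control ASO livers right of it, and each panel has its own axis that starts above 0. Transgenic points lie wholly above wild-type points for Cyp7b1, Baat and Hsd17b4, and Slco1a1 spreads widely in all groups but wild type.

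Among the 7 uptake carriers, 2 were above 0 in transgenic livers and 4 in ACAT2 ASO livers, and 0 passed the test in either. Slc10a1 (NTCP), the main sodium-dependent carrier of conjugated bile acids into the hepatocyte, had 11.76, 11.81, 11.80, 11.98 and 11.95 in transgenic and 11.97, 11.59, 11.72, 11.85 and 11.52 in wild-type livers. Among ASO-treated mice it had 11.61, 11.66, 11.66 and 11.63 in ACAT2 ASO livers and 11.72, 11.78, 11.73 and 11.94 in control ASO livers. The first pair of groups overlapped and the second did not, and the ACAT2 ASO values lay within a narrow band below every control. The differences were 0.13 ± 0.08 (limma adjusted p = 0.563) and -0.15 ± 0.08 (limma adjusted p = 0.460), and the difference of the effects was 0.28 ± 0.11 (limma adjusted p = 0.234). The other probe set of Slc10a1, with a mean of 11.38, gave -0.03 ± 0.08 in the transgenic and -0.09 ± 0.09 in the ASO model, with groups that overlapped in both, and a difference of effects of 0.06 ± 0.13. On the probe sets used, Slc10a1 with Baat and Slc51b made 3 members whose ACAT2 ASO values all lay below control, beside 4.67% of all genes (9.05% in either direction).

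Slc10a2 (ASBT), the ileal carrier that is also found on bile duct cells, had 7.41, 6.61, 6.60 and 6.93 in ACAT2 ASO livers, against 6.49, 5.72, 4.51 and 6.40 in control ASO livers. The groups did not overlap, and control ASO 3 was far below the rest. The difference was 1.11 ± 0.38, a 2.15-fold ratio (limma adjusted p = 0.186), and it was 0.68 without control ASO 3. In transgenic livers Slc10a2 had 6.01, 6.06, 5.09, 5.55 and 6.03, against 7.06, 5.78, 6.14, 5.82 and 5.84 in wild-type livers, which overlapped, with a difference of -0.38 ± 0.34 (limma adjusted p = 0.752). The difference of the effects was -1.49 ± 0.51 (limma adjusted p = 0.160). The other probe set of Slc10a2, with a mean of 3.49, gave -0.03 and 0.10 in the transgenic and ASO models. Of 8 bile duct markers, 7 were below 0 in the ASO comparison, with a median of -0.24, and their mean level was 4.23 to 4.44 in ACAT2 ASO and 4.27 to 5.18 in control ASO livers. Their median became -0.08 without control ASO 2, -0.13 without ACAT2 ASO 3 and -0.15 without control ASO 1. It became -0.32 without control ASO 3, -0.31 without control ASO 4, and -0.29 without wild type 2, ACAT2 ASO 1 and control ASO 4 together. Krt19, a bile duct keratin, had 3.99, 4.12, 4.20 and 4.19 in ACAT2 ASO and 5.50, 6.85, 4.33 and 4.30 in control ASO livers. The ACAT2 ASO values and those of control ASO 3 and control ASO 4 are low, below the array medians of that model, 4.38 to 4.40. The Krt19 groups did not overlap. The difference of -1.12 ± 0.37 (limma adjusted p = 0.170) became -0.58 without control ASO 2, the array in which Muc1, Cldn7 and Krt7 were also highest of the ASO model. The Krt19 difference became -1.42 without control ASO 3 (limma adjusted p = 0.0871) and -1.43 without control ASO 4 (limma adjusted p = 0.0801). The part of these cells in the Slc10a2 values was not tested.

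Slco1a1, an organic anion carrier of the sinusoidal membrane, had the largest SD of the 36 members in transgenic (1.37), ACAT2 ASO (1.62) and control ASO livers (1.34), though not in wild-type livers (0.38). It had 10.48, 8.57, 7.17, 9.18 and 10.38 in transgenic livers and 10.39, 9.55, 10.09, 9.80 and 10.45 in wild-type livers. It had 9.90, 9.04, 7.36 and 6.30 in ACAT2 ASO and 5.86, 6.50, 7.84 and 8.84 in control ASO livers. The groups overlapped in both models, and the differences were -0.90 ± 0.71 (limma adjusted p = 0.710) and 0.89 ± 0.79 (limma adjusted p = 0.697), so a difference of this size could not be told from the spread. The first became -0.40 without transgenic 3 and the second 0.31 without ACAT2 ASO 1. The other probe set of Slco1a1 gave -1.29 ± 0.68 and 1.00 ± 0.76 in the transgenic and ASO models. Slc22a7, an organic anion transporter of the same membrane, had 8.77, 8.05, 7.35, 8.12 and 8.23 in transgenic and 7.86, 6.89, 7.43, 7.11 and 7.06 in wild-type livers. It had 6.52, 6.97, 5.91 and 6.19 in ACAT2 ASO and 5.19, 5.06, 5.53 and 6.95 in control ASO livers. Values overlapped in both models, most transgenic and ACAT2 ASO values being higher, with differences of 0.83 ± 0.33 (limma adjusted p = 0.348) and 0.72 ± 0.36 (limma adjusted p = 0.412).

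Slco2b1, another sinusoidal organic anion carrier, had 9.28, 9.85, 9.62 and 9.44 in ACAT2 ASO livers and 9.96, 9.80, 9.69 and 9.68 in control ASO livers. ACAT2 ASO 2 overlapped the controls, and the difference of -0.23 ± 0.11 (limma adjusted p = 0.363) became -0.14 without ACAT2 ASO 1. A second probe set of Slco2b1, with a mean of 8.63, gave -0.35 ± 0.09 (unadjusted p = 0.00171, limma adjusted p = 0.110 over all probe sets) with groups that overlapped, and another, with a mean of 4.40, gave 0.04 ± 0.07. In transgenic livers it had 9.75, 10.16, 9.96, 10.10 and 10.01, against 10.11, 9.97, 10.19, 10.10 and 9.97 in wild-type livers, with a difference of -0.07 ± 0.10. Those groups overlapped. Slco1b2, a carrier of unconjugated bile acids into the hepatocyte, differed by -0.00 ± 0.06 and 0.11 ± 0.07 in the transgenic and ASO models, and Slco1a4 by -0.18 ± 0.34 and -0.29 ± 0.38.

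Of 6 canalicular genes 0 passed in either model, with 2 above 0 in transgenic livers and 4 in ACAT2 ASO livers. Abcb11 (BSEP), the pump that secretes bile acids into bile, had 9.76, 9.78, 10.003, 10.06 and 9.94 in transgenic and 9.92, 10.08, 9.82, 9.82 and 9.96 in wild-type livers. It had 9.79, 10.15, 10.01 and 9.93 in ACAT2 ASO and 9.86, 10.11, 9.84 and 9.91 in control ASO livers. The values were interleaved in both models, with differences of -0.01 ± 0.08 (95% interval -0.18 to 0.16, limma adjusted p = 0.982) and 0.04 ± 0.09 (95% interval -0.14 to 0.23, limma adjusted p = 0.893). Abcb4, the phospholipid floppase that protects the bile duct from free bile acids, differed by 0.10 ± 0.12 and 0.13 ± 0.14, and Abcc2, the exporter of bilirubin conjugates, by -0.06 ± 0.08 and 0.10 ± 0.09. Abcg2, an exporter of urate and drug conjugates, differed by 0.24 ± 0.15 and -0.14 ± 0.17, and Atp8b1, the lipid flippase of the canalicular membrane, by -0.16 ± 0.14 and 0.23 ± 0.15. Groups of all of these overlapped in both models.

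Abcb1a, a drug efflux pump, had 4.94, 6.03, 5.88 and 6.09 in ACAT2 ASO livers, against 7.25, 6.19, 5.88 and 5.77 in control ASO livers. The low ACAT2 ASO 1 and the high control ASO 1 set most of the gap, and the difference was -0.54 ± 0.29 (limma adjusted p = 0.453), or -0.21 without control ASO 1. In transgenic livers it had 5.82, 6.44, 6.68, 6.31 and 6.29, against 6.25, 6.44, 6.68, 6.72 and 6.13 in wild-type livers, with a difference of -0.13 ± 0.26. A dimmer probe set of Abcb1a, with a mean of 4.99, gave -0.62 ± 0.34 in the transgenic (limma adjusted p = 0.549 over all probe sets) and -0.44 ± 0.38 in the ASO model, and its groups overlapped in both.

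On the basolateral side, Abcc4 (MRP4), an exporter that returns bile acids to the blood, had 5.64, 6.12, 7.67, 6.01 and 6.45 in transgenic and 5.00, 6.25, 5.48, 5.75 and 5.74 in wild-type livers. Transgenic 3 was far above the others, and the difference of 0.74 ± 0.41 (limma adjusted p = 0.549) became 0.41 without it. In the ASO model Abcc4 had 4.67, 5.35, 4.98 and 5.84 in ACAT2 ASO and 7.37, 5.22, 5.47 and 5.32 in control ASO livers. Control ASO 1 stood alone, and the difference of -0.64 ± 0.46 (limma adjusted p = 0.608) became -0.13 without it. The difference of the effects was 1.37 ± 0.62 (limma adjusted p = 0.293).

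Slc51b (OST beta), a subunit of the organic solute exporter, had 4.16, 4.27, 4.12 and 4.27 in ACAT2 ASO livers, against 4.48, 4.42, 4.28 and 4.35 in control ASO livers. The groups did not overlap, yet the gap between ACAT2 ASO 2 and control ASO 3 was small, and the difference was -0.18 ± 0.07 (limma adjusted p = 0.293). These are low values, around the array medians of that model, 4.38 to 4.40. In transgenic livers Slc51b had 5.50, 5.56, 5.46, 5.77 and 5.69, against 5.59, 5.46, 5.66, 5.67 and 5.53 in wild-type livers, with a difference of 0.01 ± 0.06. Its partner Slc51a differed by -0.02 ± 0.08 and -0.00 ± 0.09 in the transgenic and ASO models. Slc51a lay below the array medians in the ASO model, at 3.57 to 3.74 in ACAT2 ASO and 3.51 to 3.77 in control ASO livers. Abcc3, another exporter to the blood, differed by 0.04 ± 0.13 and 0.08 ± 0.15, and Abcc6, a family member linked to pyrophosphate release, by -0.09 ± 0.07 and -0.01 ± 0.07.

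Fgfr4, Klb and Ephx1, the receptor of the intestinal signal, its partner, and the epoxide hydrolase, had differences of the same sign within each model. In transgenic livers the differences were 0.09 ± 0.13 for Fgfr4, 0.10 ± 0.15 for Klb and 0.11 ± 0.12 for Ephx1. In ACAT2 ASO livers they were -0.17 ± 0.14, -0.16 ± 0.17 and -0.14 ± 0.13 for the same genes. On these probe sets none passed the test in limma, the lowest adjusted p being 0.679 for Fgfr4 in the ASO model, and none had an unadjusted p under 0.05. A dimmer probe set of Fgfr4, with a mean of 4.86, gave 0.15 ± 0.04 in transgenic livers (unadjusted p = 0.00236, limma adjusted p = 0.189 over all probe sets) and 0.01 ± 0.05 in ACAT2 ASO livers. Its transgenic and wild-type groups nearly touched, with the lowest transgenic value at 4.972 and the highest wild-type value at 4.970. For Klb the other probe set, with a mean of 3.44, gave 0.06 in both models.

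Where a gene had several probe sets, the other probe sets had the same sign as the one used in 17 of 20 cases for the transgenic model and 15 of 20 for the ASO model. Restricted to the 11 other probe sets with a mean above 4.74, the level that 40% of genes lie below, the counts were 10 and 9. An unadjusted p under 0.05 was found for 3 of the 20 in the transgenic model, of Cyp7a1, Cyp7b1 and Fgfr4, and for 3 in the ASO model, of Baat, Cyp7b1 and Slco2b1, and 0 passed after adjustment over all probe sets. The shares over all genes, on the probe sets used, were 10.9% and 13.3%.

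Within groups, Cyp7a1 was compared with Cyp8b1, with the repressor Nr0b2 and with the clock output gene Dbp, in 6 relations. Values were deviations from group means, and p was exact, by permuting 1 gene within its group. Cyp7a1 and Nr0b2 had r = -0.56 over 10 arrays of the transgenic model (exact permutation p = 0.112, adjusted 0.336) and rho = -0.60 (exact permutation p = 0.0932, adjusted 0.280). In the ASO model they had r = -0.82 over 8 arrays (exact permutation p = 0.0573, adjusted 0.336) and rho = -0.81 (exact permutation p = 0.0833, adjusted 0.280). Arrays with a low Cyp7a1 for their group tended to have a high Nr0b2 in both models, and neither relation passed the correction. Without the 2 arrays farthest from the median of Cyp7a1, r was -0.91 in the transgenic model (exact permutation p = 0.00347, adjusted 0.0208), with rho -0.86 (exact permutation p = 0.0139, adjusted 0.0833), and -0.58 in the ASO model (exact permutation p = 0.306, adjusted 0.467). The arrays left out in the ASO model were ACAT2 ASO 3 and control ASO 3, and rho without them was -0.37 (exact permutation p = 0.611, adjusted 0.701). With 6 arrays left the smallest possible p was 0.0278, so the ASO relation could not by itself pass the correction. It was weaker without these 2 arrays, which were also the farthest out for Cyp7a1.

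For Cyp8b1 the exact permutation p was 0.591 in the transgenic model (r = -0.22, rho = -0.14) and 0.351 in the ASO model (r = 0.50, rho = 0.48). For Dbp it was 0.266 (r = 0.42, rho = 0.27) and 0.415 (r = 0.31, rho = 0.33). Nr0b2 itself differed by 0.07 ± 0.31 between transgenic and wild-type livers and by -0.23 ± 0.34 between ACAT2 ASO and control ASO livers.

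**Figure D4:**
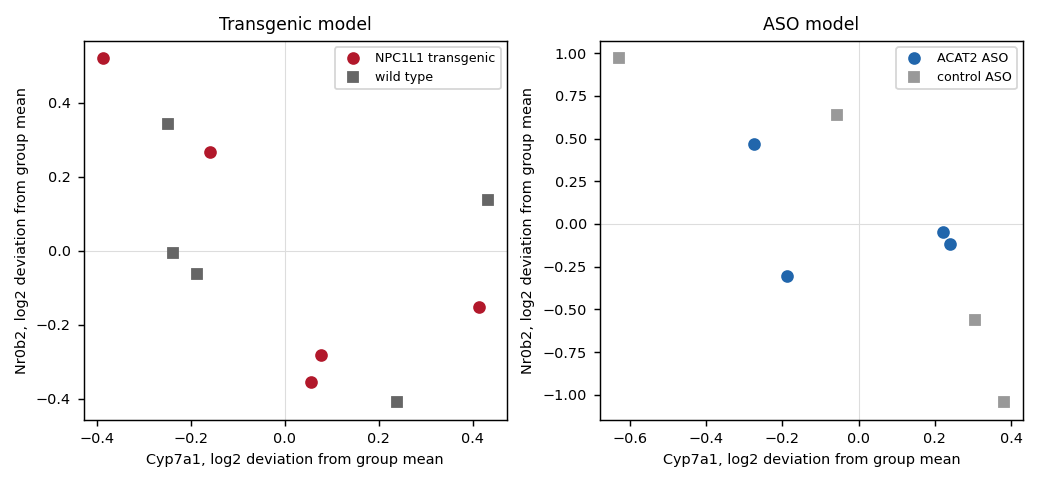
Deviation of each array from its group mean for Cyp7a1 (horizontal, log2) and Nr0b2 (vertical, log2), for 10 arrays of the transgenic model (left) and 8 arrays of the ASO model (right). Arrays with low Cyp7a1 tend to lie high for Nr0b2, with r = -0.56 on the left and -0.82 on the right.

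Other genes around the pathway were followed in further lists. Of 14 further synthesis and conjugation genes, 0 passed for the transgene and 1 for the ASO. That gene was Akr1c14, a hydroxysteroid dehydrogenase, with 11.00, 11.02, 11.24 and 10.90 in ACAT2 ASO and 10.59, 10.87, 10.61 and 10.51 in control ASO livers. It rose by 0.39 ± 0.09 with no overlap between the groups (limma adjusted p = 0.0453), and its difference in transgenic livers was 0.02 ± 0.08. That call passed in 1 of 8 fits that each left out 1 array of the comparison, the one without control ASO 2, and the adjusted p ran from 0.0184 to 0.166 over 17 alternatives. Of 15 further transport genes and 16 regulators, 0 passed in either model. At an unadjusted p under 0.05, 4 of the 15 transport genes were higher in ACAT2 ASO livers, beside 5.68% of all genes. In that comparison 0 were lower, beside 7.63%. For 3 of the 15 the ACAT2 ASO values all lay above control, beside 4.39% of all genes. With the transgene 0 of the 15 had such a p, beside 10.9% in either direction. Nr1i3 (CAR), a nuclear receptor that senses drugs and bile acid load, had 8.71, 8.74, 9.17 and 8.93 in ACAT2 ASO livers, against 9.53, 9.64, 9.73 and 8.93 in control ASO livers, with a difference of -0.57 ± 0.16 (limma adjusted p = 0.111). Control ASO 4 lay within the ACAT2 ASO range, so the groups overlapped, and without that array Nr1i3 was called, at -0.74 (limma adjusted p = 0.0169). Nr1i3 was also called without wild type 2, ACAT2 ASO 1 and control ASO 4 together, at -0.68 (limma adjusted p = 0.0338). No other fit that left out 1 array of the comparison called it (limma adjusted p 0.123 to 0.254). Mafg, a repressor of bile acid genes downstream of FXR, differed by -0.27 ± 0.09 in the ASO model (limma adjusted p = 0.170), and Rxra, the partner of FXR, by 0.15 ± 0.07 in the transgenic model (limma adjusted p = 0.417). Of 12 core clock genes, 0 passed in either model.

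Bile acid synthesis is zoned in the liver lobule, so zone and cell type lists were read beside these results. Of 9 pericentral genes 0 passed, and 7 of 9 were above 0 in ACAT2 ASO livers, with a median of 0.11. The smallest p of that list in the ASO model went the other way: Slc1a2, a glutamate transporter, had 6.56, 6.73, 6.60 and 6.62 in ACAT2 ASO and 6.86, 7.19, 7.22 and 7.31 in control ASO livers, with no overlap and a difference of -0.52 ± 0.12 (limma adjusted p = 0.0563). It was called without ACAT2 ASO 2 (limma adjusted p = 0.0496) and without control ASO 1 (limma adjusted p = 0.0346). The other fits that left out 1 array of the comparison did not call Slc1a2 (limma adjusted p 0.0982 to 0.134). In transgenic livers 4 of 9 pericentral genes were above 0, and the smallest p was that of Rhbg, an ammonia transporter, at 0.51 ± 0.12 with no overlap (limma adjusted p = 0.0873). Of 8 periportal genes 0 passed, and 7 of 8 were below 0 in ACAT2 ASO livers, with a median of -0.25, and in transgenic livers, with a median of -0.06. The smallest p in the ASO model were those of Hsd17b13, a lipid droplet protein, at -0.39 ± 0.11 (limma adjusted p = 0.107), and Hal, a histidine ammonia lyase, at -0.60 ± 0.17 (limma adjusted p = 0.112). Hal was called without ACAT2 ASO 2, at -0.77 (limma adjusted p = 0.0209). It was not called in any other fit that left out 1 array of the comparison (limma adjusted p 0.0747 to 0.272). All 8 Kupffer cell markers were above 0 in ACAT2 ASO livers, with a median of 0.45, and 0 passed; their mean level was 7.36 to 9.30 in ACAT2 ASO and 7.38 to 8.84 in control ASO livers. Within 3 groups the highest Kupffer mean belonged to the array that correlated least with its group, at 9.72 in wild type 2, 9.30 in ACAT2 ASO 1 and 8.84 in control ASO 4. The ASO median became 0.08, with 6 of 8 above 0, without ACAT2 ASO 1, 0.29 without control ASO 1, 0.73 without control ASO 4 or without ACAT2 ASO 3, and 0.39 without wild type 2, ACAT2 ASO 1 and control ASO 4 together. In transgenic livers 3 of 8 Kupffer markers were above 0, with a median of -0.02, and 8 of 8 were without wild type 2, with a median of 0.20. The part of zone or cell makeup in the values of the ASO model was not tested. Of 6 enterocyte markers 0 passed in either model. Of 5 kidney tubule markers 1 passed in the ASO model, beside 0.597% of all genes. It was Kap, at 0.36 ± 0.05 (limma adjusted p = 0.00243). Its call held in 15 of 17 alternatives. It was lost with its probe sets averaged (limma adjusted p = 0.0687) and on the arrays of the ASO model alone (limma adjusted p = 0.0844). The mean level of that list was 3.95 to 3.99 in ACAT2 ASO and 3.86 to 3.91 in control ASO livers. Kap itself was not among the 40% of genes with the lowest mean.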

How the data were processed

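RNA of 18 liver samples was measured on Affymetrix GeneAtlas MG-430 PM arrays, after Trizol extraction and 3′-IVT labelling per the labels' protocols. The authors summarised probe sets with RMA, according to the submitters' processing notes, and deposited log2 values; the scale was read from their range. No version of RMA is given, and the 2 models may have been normalized separately. Groups came from the sample titles. Samples are numbered in the labels with no word on whether each is a separate animal, so the p-values reflect only the spread among these samples, part of which may be technical. No 2 arrays held identical values, and the number of arrays limits the precision.

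Of 45141 probe sets, 104 were controls and 28898 had 1 gene symbol in the platform annotation, 551 several and 15588 none. Each gene was represented by the brightest of its probe sets on average, and no filter on low values was set. Of the 28898, 28689 matched the mouse gene table (GRCm38.p6) by Entrez number, with 0 symbols changed. Knockdown of the ASO's target was not analysed here.

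A mean per group was fitted over all 18 arrays with limma 3.58.1 (R 4.3.3, lmFit and eBayes), two-sided, with Benjamini-Hochberg adjustment over 17097 genes. The contrasts set transgenic against wild-type livers, ACAT2 ASO against control ASO livers, and the first effect against the second. Differences are given with limma's standard error and group means with the SD. Per-array values are given for members with an unadjusted p under 0.05 or a difference above 0.5 in either model, and for Cyp7a1, Cyp8b1, Cyp27a1, Cyp7b1, Slc10a1, Abcb11 and Baat; of other lists, genes were named from the 4 with the smallest p. The members, lists, tests and alternatives were chosen with earlier results of these data known. The fit was tested on simulated data. Alternatives covered a filter on low values, centring, quantile normalization, the choice of probe set, the arrays in the fit, the variance model, weighting of arrays, a block for the replicate number, and arrays left out. Other probe sets of the members, and the other lists without single arrays, were examined after the values were seen. Relations and figures used Python 3.11.15, scipy 1.17.1 and matplotlib 3.10.9.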

Additional observations from a re-analysis of the deposited data

Results flagged for a closer look

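The response of Baat differed between the models by a test of the difference itself, at 0.48 on the log2 scale (limma adjusted p = 0.0245), higher in 5 of 5 transgenic livers than in any wild-type liver and lower in 4 of 4 ACAT2 ASO livers than in any control ASO liver. The part of strain and of the oligonucleotide in every mouse of the ASO model was not tested. The call did not hold with the mean of both probe sets, without ACAT2 ASO 1, without control ASO 2 or without wild type 2, ACAT2 ASO 1 and control ASO 4 together.

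In 7 of 144 group values of the members, 1 array stood apart from the rest of its group by Dixon's criterion, which chance gives in about 1 of 20 groups. Akr1d1 was high in transgenic 2, at 10.95 with the next array at 10.63. Acox2 was low in wild type 3, at 10.40 with the next at 10.55. Baat was low in transgenic 1, at 9.50 with the next at 9.64. Slc10a2 was high in wild type 1, at 7.06 with the next at 6.14. Slco1a4 was low in control ASO 4, at 8.61 with the next at 9.33. Abcc3 was high in transgenic 3, at 10.24 with the next at 9.97. Abcc4 was high in control ASO 1, at 7.37 with the next at 5.47.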

How the results depend on the processing

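The count of members called in the transgenic comparison was 0 under every alternative run. In the ASO comparison it was 0 except with array weights, where 1 member, Cyp2c70, passed. The single call for the difference of the effects, Baat, was lost (count 0) with a gene's probe sets averaged, with the replicate block (limma adjusted p = 0.0866) and without wild type 2, ACAT2 ASO 1 and control ASO 4 together. Leaving out 1 array at a time gave counts of 0 to 1 for that difference, the 0 without ACAT2 ASO 1 or control ASO 2, and a Baat value of 0.44 to 0.51 with limma adjusted p of 0.0183 to 0.0552. The relation of Cyp7a1 to Nr0b2 in the transgenic model passed the correction, at r = -0.91 (exact permutation p adjusted 0.0208), only without wild type 5 and transgenic 5.

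The median difference of the members ran from 0.048 to 0.088 in the transgenic and from -0.017 to 0.0095 in the ASO comparison, outside the fits that left out 1 array.

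The replicate numbers did not pair the samples: same-numbered arrays correlated between -0.48 and 0.17 in the transgenic and -0.48 and 0.47 in the ASO comparison, and 0 of 10 and 2 of 8 arrays correlated best with their own number. Over all genes the block left 2 calls against 39 in the transgenic comparison, 18 against 102 in the ASO comparison and 12 against 183 for the difference. Fits on a comparison's own arrays left 13 and 17 calls in the transgenic and ASO comparisons. Array weights gave 465 calls in the ASO comparison and 369 for the difference, and leaving out the 3 arrays together gave 46 and 58. Centring gave 112 calls for the difference and quantile normalization 102. The cause of these shifts was not tested.

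The following differences changed sign, and each was uncalled with either sign. With arrays centred on their median in the transgenic comparison Slco1b2 became 0.0018 and in the ASO comparison Slc51a became 0.0018. With quantile normalization in the ASO comparison Scp2 became 0.0025, Abcc6 became 0.015. With array weights in the transgenic comparison Slc51b became -0.0053 and in the ASO comparison Akr1d1 became 0.013, Abcc3 became -0.017. Without wild type 2, ACAT2 ASO 1 and control ASO 4 in the transgenic comparison Slc27a2 became -0.025, Scp2 became -0.0038, Abcb11 became 0.029, Slc51b became -0.017 and in the ASO comparison Cyp8b1 became 0.0054, Akr1d1 became 0.052, Abcc3 became -0.12, Abcc6 became 0.014, Slc51a became 0.041. Leaving out 1 array at a time moved these transgenic differences across 0: Abcb11 -0.051 to 0.029, Abcc3 -0.043 to 0.10, Akr1d1 -0.12 to 0.0083, Scp2 -0.0038 to 0.050, Slc27a2 -0.025 to 0.071, Slc51a -0.082 to 0.022, Slc51b -0.029 to 0.049, Slco1b2 -0.038 to 0.024. Leaving out 1 array at a time moved these ASO differences across 0: Abcb11 -0.017 to 0.10, Abcc3 -0.11 to 0.17, Abcc6 -0.082 to 0.037, Abcg2 -0.22 to 0.017, Acox2 -0.053 to 0.14, Akr1d1 -0.16 to 0.069, Amacr -0.030 to 0.086, Cyp39a1 -0.25 to 0.26, Cyp7a1 -0.10 to 0.23, Cyp8b1 -0.70 to 0.022, Slc51a -0.045 to 0.042, Slco1a4 -0.51 to 0.18.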

Other observations

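Among the 36 measured members, 630 pairs were compared by their within-group correlation in each model, 1260 relations in all, after the other results were seen. An unadjusted exact permutation p under 0.05 was found for 102 relations and an adjusted p under 0.05 for 0.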
